A study of Mus musculus with 4 samples.

Results

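The genes described here are 10 components of the mammalian circadian clock: Per1, Per2, Per3, Cry1, Cry2, Arntl (also called Bmal1), Npas2, Nr1d1, Nr1d2 and Dbp. Every probe set that the platform annotation assigns to one of these symbols alone was kept, which gave 21 of the 45037 probe sets measured, for 10 of 18193 genes. The members were picked from textbook knowledge of the clock and chosen on measured values as well, since earlier results of the genotype comparison were known, among them a lower level of Per2 in the knockout; so the genotype differences below are given as a description. RNA came from the brains of 4 male mice on a C57BL/6 background, aged 8 to 9 weeks, and each mouse was hybridised to 1 array. The groups were 2 wildtype mice and 2 BCAS1 KO mice, a knockout of Bcas1, a gene of myelinating oligodendrocytes. The labels name no treatment, and all 4 were offspring of heterozygous parents. The sources used here do not state the allele, the number of litters, the lighting schedule or the time of day at which the brains were taken.

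The clock is a feedback loop of transcription that runs in nearly every cell with a period of about a day. The activators ARNTL and CLOCK, or NPAS2 in place of CLOCK in the forebrain, bind E-box sequences and switch on the Per, Cry, Nr1d and Dbp genes. PER and CRY proteins then return to the nucleus and repress the activators. NR1D1 and NR1D2 (the REV-ERB proteins) repress Arntl and Npas2 through ROR response elements, so the RNAs of Arntl and Npas2 peak in opposite phase to those of Per and Dbp. DBP binds a further sequence, the D-box, and drives a layer of output genes. Outside the suprachiasmatic nucleus, the master clock of the hypothalamus, most brain regions hold their own rhythms of these RNAs.

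Values are RMA levels on a log2 scale, so a difference of 1 is a doubling of the fitted signal. The arrays had medians of 6.49 to 6.51. Of 10 brain marker genes 8 were measured, and their mean level was 12.04 to 12.13 on the 4 arrays. Although the sample descriptions name the cerebrum, the cerebellar markers Pcp2 and Gabra6 were bright on all arrays, at 11.50 to 11.78, and the mean of 7 cerebellar markers differed little between arrays (10.25 to 10.26). The brightest Bcas1 probe set was at 12.17 and 12.21 in wild type against 11.05 and 10.75 in the knockout, and its remaining probe sets, at 5.11 to 6.38, were higher in the knockout. The second knockout array stood apart in markers of other tissues. The mean of 8 measured nasal genes was 7.81 there and 5.64 to 5.83 on the other arrays, while Omp, which defines olfactory neurons, was 6.56 there and 6.17 to 6.42 elsewhere. The mean of 6 pituitary genes was 6.33 there and 5.97 to 6.07 elsewhere. Among them Gh was at 7.53 there, 6.88 in the first knockout array and 6.44 and 6.55 in wild type, while Tshb was lowest there, at 5.44. The mean of 6 blood cell genes was 6.57 in the second knockout array, 6.11 in the first knockout array and 5.70 to 5.88 in wild type. The blood cell genes did not all follow that mean. S100a9 was at 7.34 there, 6.62 in the first knockout array and 5.85 and 5.52 in wild type. Alas2 was at 6.97 there and 7.02 in the first wild-type array. Of the 6 blood cell genes, 4 were higher in both knockout mice than in both wild-type mice, against 15.5% of all genes. Of 5 pineal genes 4 were measured and all were dim, with means of 4.90 to 5.03. The part of these markers in the clock gene results was not tested, and values without that array are given for Per2, Per3, Dbp, the brighter Nr1d2 and the brighter Arntl probe set.

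The loop is closed through short sequence elements, of which only some were found in the member promoters searched here. Examples with a match are shown because they are the elements that define these roles. The values below do not sort the genes by motif. RefSeq sequence of the GRCm38.p6 build, from 250 bases before to 50 bases after each start site, was matched by symbol for 9 of the 10 members in 11 windows; Per2 was not matched. Both strands were searched for an E-box (CACGTG), an E-prime-box (CACGTT), a D-box (TTATGNAA), the core of a ROR response element (TAGGTCA) and the first 6 letters of the cAMP response element (TGACGT). Among all 32851 windows of this length, 7.15% hold the E-box, 4.68% the E-prime-box, 3.38% the D-box, 2.61% the ROR core and 7.51% the cAMP site. Of the 11 member windows, 2 held the E-box, 3 the E-prime-box, 2 the D-box, 1 the ROR core and 1 the cAMP site. In the runs that follow, written on the strand of the gene from 5′ to 3′, capitals mark a match to any of these motifs. The upstream 250 bases of Per1 (chr11:69098699-69098948, plus strand) hold an E-box and a D-box, and those of Per3 (chr4:151044666-151044915, minus strand) hold 2 D-boxes, the sequence that DBP binds. Cry1 (chr10:85185097-85185126, minus strand) has an E-box, Nr1d1 (chr11:98775388-98775417, minus strand) an E-prime-box, and Arntl (chr7:113207529-113207558, plus strand) a ROR core just after a start site, each shown in 30 bases.
Per1: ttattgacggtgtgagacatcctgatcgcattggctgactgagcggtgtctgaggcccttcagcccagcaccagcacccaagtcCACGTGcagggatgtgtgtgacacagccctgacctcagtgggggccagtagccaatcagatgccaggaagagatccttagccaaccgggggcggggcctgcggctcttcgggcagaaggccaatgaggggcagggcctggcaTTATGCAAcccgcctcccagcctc
Per3: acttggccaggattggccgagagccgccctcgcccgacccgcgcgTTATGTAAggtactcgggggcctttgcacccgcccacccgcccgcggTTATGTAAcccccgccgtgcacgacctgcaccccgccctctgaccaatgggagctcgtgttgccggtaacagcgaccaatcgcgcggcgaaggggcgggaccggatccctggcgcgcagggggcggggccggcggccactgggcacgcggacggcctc
Cry1: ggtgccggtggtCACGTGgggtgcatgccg
Nr1d1: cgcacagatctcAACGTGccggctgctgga
Arntl: gaaggcagaaagTAGGTCAgggacggaggt
The second start site of Per1 (250 bases before it at chr11:69099902-69100151) has the cAMP site, the kind of element through which neuronal activity induces this gene, and Cry1 and Cry2 each have an E-prime-box. A match is a description of letters, and the Dbp, Npas2 and Nr1d2 windows held none of these motifs.

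Per2, a repressor of the loop, was lower in the knockout in all 3 of its probe sets. The brightest was at 8.19 and 8.01 in the wild-type mice and at 7.70 and 7.66 in the knockout mice. Both knockout mice lay below both wild-type mice, with a difference of -0.42 (SE 0.091), a 1.34-fold lower level. The second brightest was at 7.63 and 7.21 in the wild-type mice and at 7.17 and 6.98 in the knockout mice, a difference of -0.34 (SE 0.16). Here the first wild-type mouse alone was far from the rest, and the second lay only just above the first knockout mouse. Without the first wild-type mouse the difference of this second probe set was -0.13, and that of the brightest was -0.33. The dimmest was at 5.89 and 5.83 against 5.76 and 5.63, a difference of -0.17 (SE 0.083). In RNA of a tissue, fewer cells that express a gene and less RNA per cell cannot be told apart.

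Per3, a further period gene, was read by 6 probe sets that did not agree in size. The brightest was at 8.59 and 8.44 in the wild-type mice and at 8.39 and 8.28 in the knockout mice, a difference of -0.18 (SE 0.091) with the genotypes not overlapping. It was -0.12 without the second knockout mouse and -0.10 without the first wild-type mouse. The second brightest was at 7.58 and 7.46 against 7.39 and 7.04, with a difference of -0.30 (SE 0.14) that was -0.13 without the second knockout mouse. In the third brightest, at 7.17 and 7.04 against 7.04 and 6.91, the second wild-type and the first knockout mouse had the same level. The 3 dimmest Per3 probe sets, at 5.70 to 6.47, differed by -0.03 to 0.02 between genotypes, and their groups overlapped. Per1, the period gene that also responds within minutes to neuronal activity and glucocorticoids, was at 10.10 and 10.04 in the wild-type mice and at 9.93 and 10.04 in the knockout mice. The second mouse of each genotype had the same Per1 level, and the difference of -0.085 (SE 0.08) was within the spread between mice.

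**Figure D1:**
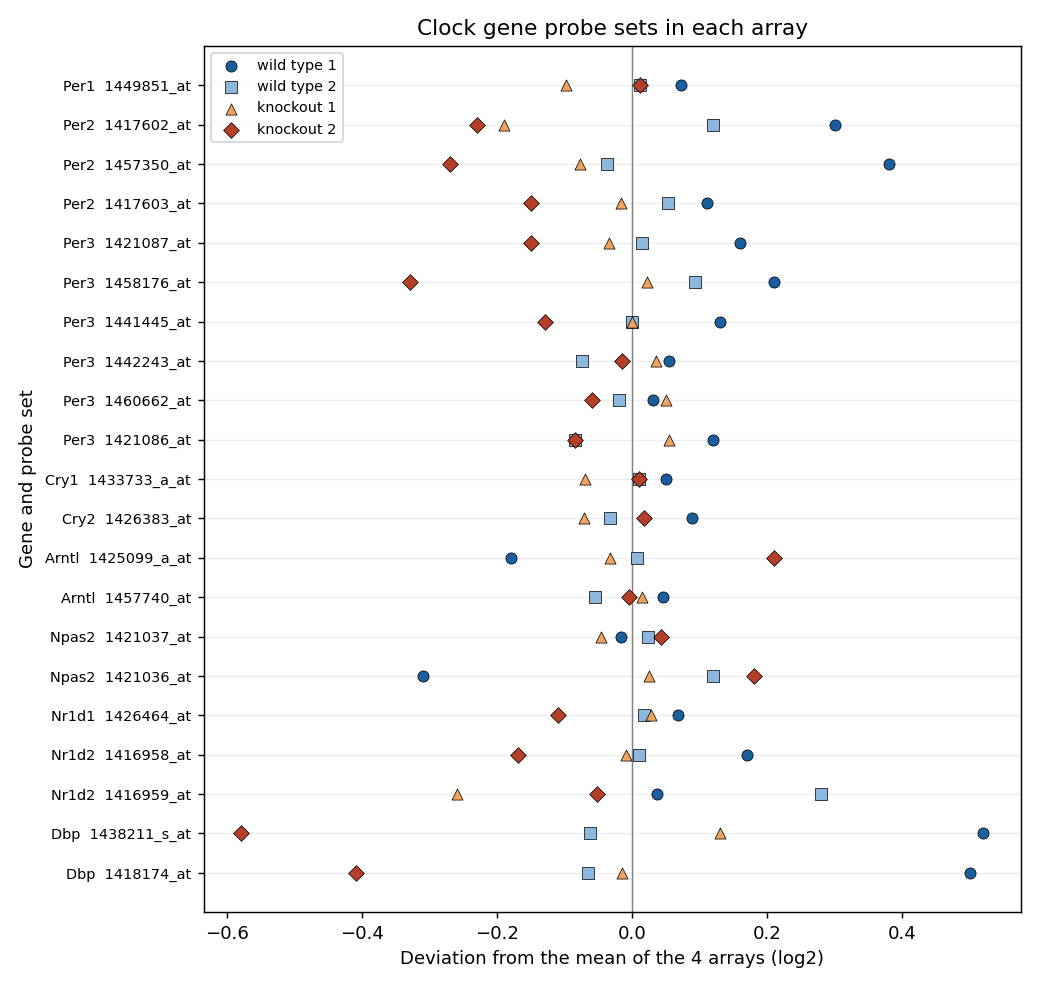
Deviation of each of the 21 clock gene probe sets from its mean over the 4 arrays, on a log2 axis; each symbol is 1 mouse. The first wild-type mouse is highest and the second knockout mouse lowest in all 3 Per2 and both Dbp probe sets, and the brightest Arntl probe set has the reverse order at its ends.

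Dbp, the D-box activator and the member with the widest swing, differed widely between mice of one genotype as well as between genotypes. Its brighter probe set was at 11.12 and 10.54 in the wild-type mice and at 10.73 and 10.02 in the knockout mice. The first knockout mouse lay above the second wild-type mouse, so the groups overlapped. The genotype difference was -0.46 (SE 0.31), while the mice of one genotype were 0.58 apart in wild type and 0.71 apart in the knockout. The dimmer Dbp probe set was at 9.68 and 9.12 against 9.17 and 8.77, a difference of -0.43 (SE 0.23), again with overlap. In it the mice were 0.56 apart in wild type and 0.40 apart in the knockout. The Dbp ranges over the 4 arrays, 1.1 and 0.91, stood at percentiles 99.8 and 99.6 of the ranges of all probe sets. The range of the brightest Per2 probe set, 0.53, was at percentile 94.5. Without the second knockout mouse the Dbp differences were -0.10 for the brighter and -0.23 for the dimmer probe set, and without the first wild-type mouse they were -0.16 and -0.15. The 3 Per2 probe sets, from bright to dim, were at -0.40, -0.25 and -0.10 without the second knockout mouse.

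Nr1d2, a REV-ERB repressor, was bright and lower in the knockout. Its brighter probe set was at 12.41 and 12.25 in the wild-type mice and at 12.23 and 12.07 in the knockout mice, a difference of -0.18 (SE 0.1) with 0.16 between the mice of each genotype. The genotypes were separated by the small gap from 12.25 to 12.23, and the difference was -0.10 without the first wild-type mouse and also without the second knockout mouse. The dim Nr1d2 probe set was at 6.35 and 6.59 against 6.05 and 6.26, a difference of -0.32 (SE 0.12) in which, unlike the brighter one, the second mouse of each genotype was the higher; it was -0.20 without the second wild-type mouse and -0.21 without the first knockout mouse. Nr1d1, the other REV-ERB, was at 7.00 and 6.95 in the wild-type mice and at 6.96 and 6.82 in the knockout mice, with overlapping groups and a difference of -0.085 (SE 0.084). Its gene overlaps Thra on the opposite strand, and the sources used here do not place its probes.

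The cryptochromes, which form the repressor complex with the PER proteins, differed least among the repressors. Cry1 was at 8.11 and 8.07 in the wild-type mice and at 7.99 and 8.07 in the knockout mice, a difference of -0.06 (SE 0.074). Cry2 was at 9.65 and 9.53 against 9.49 and 9.58, a difference of -0.055 (SE 0.084). The groups touched in Cry1 and overlapped in Cry2, and neither gene showed the order of mice seen in Dbp.

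Arntl and Npas2, the activators of opposite phase, were each at the other end in the same mice in 1 of 2 probe sets. The brighter Arntl probe set was at 8.67 and 8.86 in the wild-type mice and at 8.82 and 9.06 in the knockout mice. The second knockout mouse, lowest in Dbp and Per2, was the highest here, and the first wild-type mouse was the lowest. The genotype difference was 0.18 (SE 0.12), with overlap; it was 0.055 without the second knockout mouse and 0.08 without the first wild-type mouse. The dimmer Arntl probe set did not share this order, at 6.92 and 6.82 against 6.89 and 6.87. For Npas2 the order lay in the dimmer probe set, which was at 6.33 and 6.76 in the wild-type mice and at 6.67 and 6.82 in the knockout mice, a difference of 0.20 (SE 0.16). Without the first wild-type mouse that difference was -0.015. The brighter Npas2 probe set spanned only 0.09 over the 4 arrays, at 8.23 and 8.27 against 8.20 and 8.29.

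To set both phases beside each other in each mouse, deviations from the 4-array mean were averaged within each gene and then over Per1, Per2, Per3 and Dbp, and likewise over Arntl and Npas2. The outputs deviated by 0.24 and -0.0046 in wild type against -0.029 and -0.21 in the knockout. The activators deviated by -0.12 and 0.022 in wild type against -0.01 and 0.11 in the knockout. Outputs minus activators came to 0.36 in the first wild-type mouse, -0.027 in the second, -0.019 in the first knockout mouse and -0.31 in the second. The second wild-type and the first knockout mouse were thus at nearly the same value, between 2 mice at opposite ends, and the genotypes overlapped. The mean difference between genotypes was -0.33, against 0.38 between the wild-type mice and 0.29 between the knockout mice. The first is between means of 2 mice and the others are between single mice, which vary more. It was -0.14 without the first wild-type mouse, -0.18 without the second knockout mouse, -0.52 without the second wild-type mouse and -0.48 without the first knockout mouse. With Nr1d1 and Nr1d2 added to the outputs the 4 values, in the same order, were 0.31, 0.0013, -0.027 and -0.28.

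**Figure D2:**
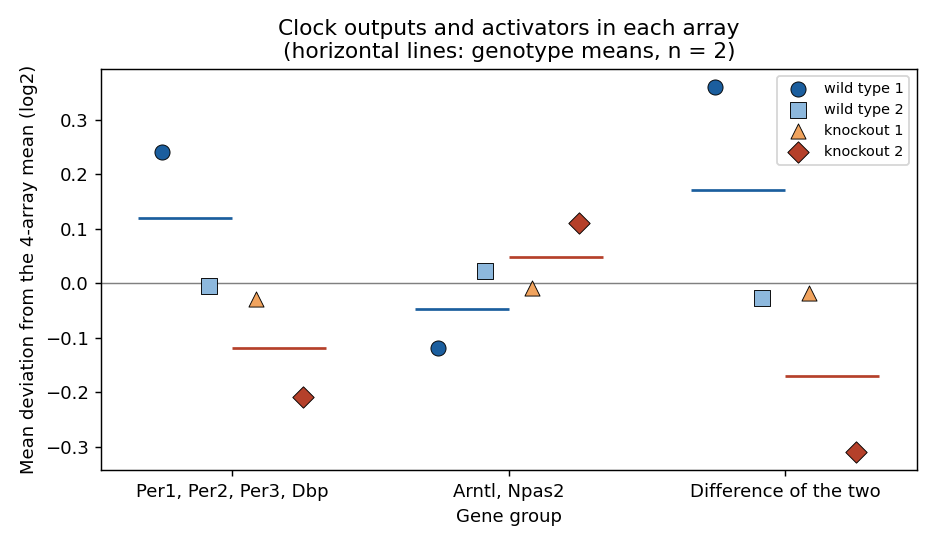
Mean log2 deviation from the 4-array mean of the outputs, of the activators, and of outputs minus activators, with 1 symbol per mouse and lines at the genotype means of 2 mice. The second wild-type mouse (-0.027) and the first knockout mouse (-0.019) meet in the middle of the contrast, between 0.36 and -0.31.

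Differences between mice of the same genotype are given as a further description, since the genes and their split into outputs and activators were chosen with these arrays known. The first mouse was above the second in both genotypes in 11 of the 12 Per and Dbp probe sets, Per1 being the exception, where 22.9% of all probe sets had that order. In the 4 Arntl and Npas2 probe sets the first mouse was below the second in both genotypes in 3, against 30.9% of all probe sets. Mouse numbers come from the labels, which do not say that a number marks a shared litter, day or batch. The 12 probe sets are of 4 genes, 6 of them of Per3, and probe sets of one gene are not separate measurements of a mouse. Over the 21 probe sets the median difference between the wild-type mice was 0.12 and between the knockout mice 0.11, where the medians over all probe sets were 0 and -0.03.

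**Figure D3:**
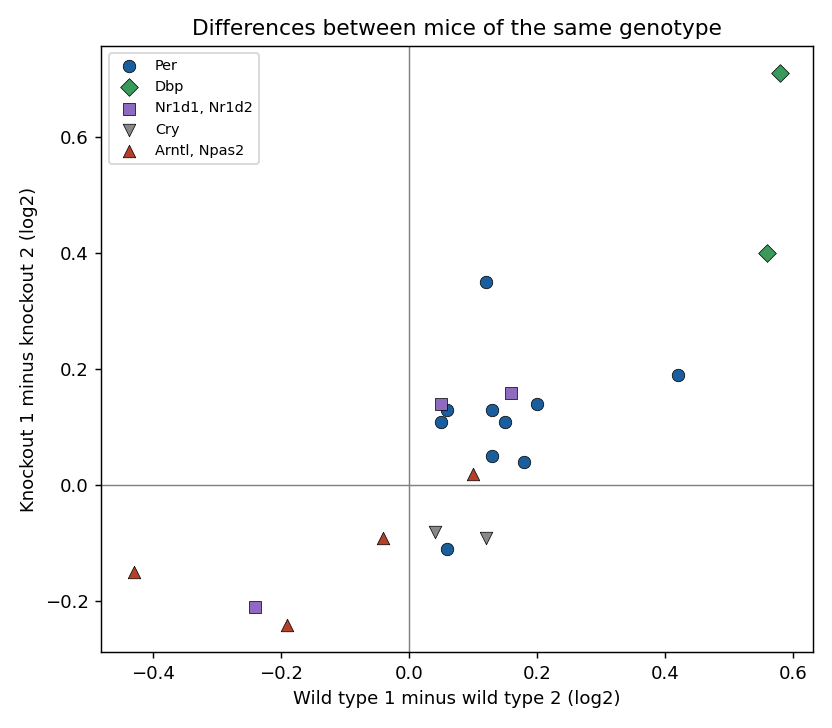
Difference between the 2 wild-type mice (x axis, log2) against the difference between the 2 knockout mice (y axis, log2) for the 21 probe sets, coloured by role. Both Dbp probe sets lie at 0.56 or more on the x axis and 0.40 or more on the y axis, and 3 of the 4 activator probe sets lie at the lower left.

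Across genotypes, 17 of the 21 probe sets had negative differences and 4 positive ones, while 15 were negative when each array was centred on its median, because 1 Per3 and 1 Npas2 probe set at -0.01 and -0.005 moved to 0 and 0.005. The median over the 21 was -0.085, against 0 over all probe sets. The knockout mice lay below both wild-type mice in 7 of the 21 and above both in 0, where the shares over all probe sets were 13.2% and 13.9%. These 7 were the 3 of Per2, 2 of Per3 and both of Nr1d2. The first wild-type mouse was highest and the second knockout mouse lowest in 10 of the 21, an order that 8.97% of all probe sets had and that was picked out after the values were seen. The reverse order held for 1 Arntl and 1 Npas2 probe set, and for 9.9% of all probe sets. In the fit over all probe sets 0 of the 21 passed an adjusted p of 0.05 in limma, each having an adjusted p of 1, and 0.00444% of all probe sets passed. At an unadjusted p under 0.05 limma gave 1 of the 21, the brightest Per2 probe set, and 3.42% of all probe sets. As the members were chosen with this comparison known, nothing is read from these counts.

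Other genes of the clock pathway differed in both directions. Of 27 genes listed, 24 were measured, 9 with positive, 12 with negative and 3 with zero differences by their brightest probe set. The knockout mice lay below both wild-type mice in 5 and above both in 3, where 12.8% and 15.5% of all genes did so. In limma 0 passed the adjusted threshold in either direction, against 0.0055% of all genes, and 1 had an unadjusted p under 0.05, against 2.75%. The median difference was -0.0075, and over all genes it was 0.005. Clock, the usual partner of ARNTL, was at 9.89 to 9.91 on all arrays. Rorb, an activator through ROR elements, was at 9.53 and 9.45 in the wild-type mice and at 9.37 and 9.17 in the knockout mice, a difference of -0.22 (SE 0.098). Tef, a relative of Dbp that binds the same D-box, was at 11.39 and 11.26 against 11.16 and 11.18, and Hlf, the remaining member of that family, lay at 10.26 to 10.30 throughout. Nfil3, which represses through the D-box and runs opposite to Dbp, was at 7.89 and 8.02 in the wild-type mice and at 8.06 and 8.27 in the knockout mice. Its order of mice was that of the brighter Arntl probe set at both ends, and its difference was 0.21 (SE 0.11). Ciart, an E-box-driven repressor, followed Dbp in separating mice within a genotype, with 7.72 and 7.23 in wild type against 7.48 and 7.19 in the knockout. The wild-type mice were 0.49 apart and the knockout mice 0.29 apart in Ciart, and its genotype means differed by -0.14 (SE 0.2).

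Ubiquitin ligase subunits that mark PER and CRY for destruction differed in both directions. Btrc, which recognises phosphorylated PER, was at 9.66 and 9.65 in the wild-type mice and at 9.87 and 9.92 in the knockout mice, a difference of 0.24 (SE 0.07). Its paralog Fbxw11 was at 12.84 and 12.87 against 13.03 and 13.02, a difference of 0.17 (SE 0.069). In both the mice of a genotype were within 0.05 of each other and the genotypes did not overlap. Fbxl21, which acts on CRY, was dim and at -0.17 (SE 0.071). Csnk1d and Csnk1e, the kinases that phosphorylate PER, differed by 0.075 (SE 0.085) and -0.055 (SE 0.076), with overlapping groups.

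**Figure D4:**
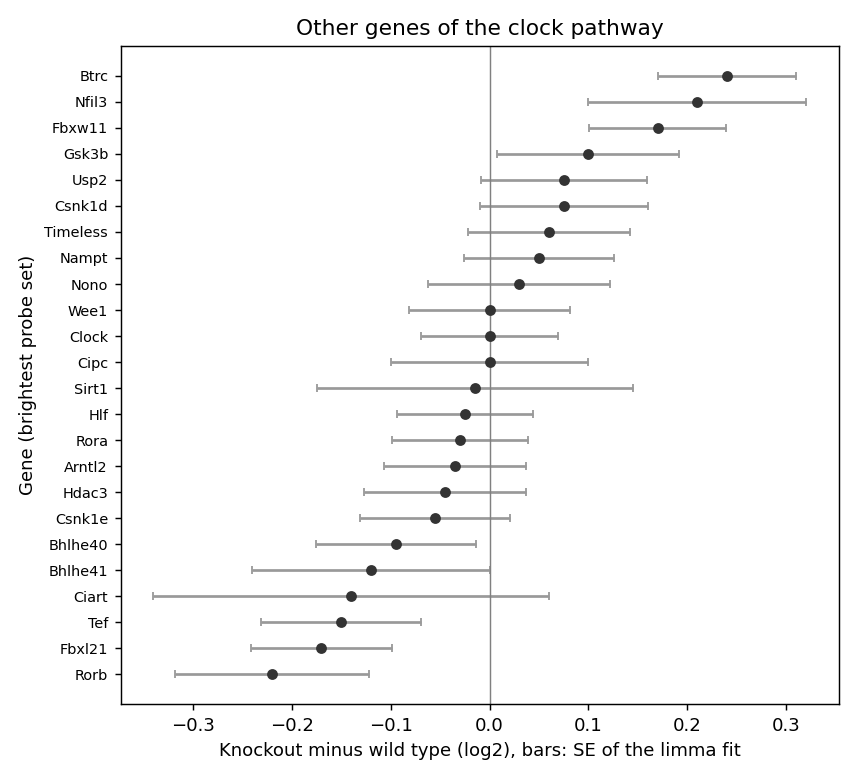
Knockout minus wild type (log2) for the 24 other clock pathway genes measured, by their brightest probe set, with bars for the SE of the limma fit over 2 mice per genotype. Btrc at 0.24 and Rorb at -0.22 are at the ends, and 0 genes passed the adjusted threshold.

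Gene lists that respond to a mouse's state before death were set beside the clock genes, because Per1 and Per2 are also induced by activity, glucocorticoids and temperature. Of 15 activity-induced genes, which neurons switch on as they fire, 12 had negative differences and the median was -0.12. Their mean deviations were 0.12 and -0.016 in wild type against -0.015 and -0.086 in the knockout, the same order of mice at both ends as the clock outputs. Dusp1, a phosphatase that ends kinase signalling, was at 11.26 and 10.92 in the wild-type mice and at 10.95 and 10.67 in the knockout mice. Npas4, a transcription factor of neuronal activity, was at 8.43 and 8.06 against 8.26 and 7.75. In Dusp1 and Npas4 the first knockout mouse lay above the second wild-type mouse, as in Dbp. Fos, at 11.97 and 11.68 against 11.58 and 11.58, and Arc, a synaptic protein, at 10.41 and 10.32 against 10.16 and 10.13, were instead lower in both knockout mice than in both wild-type mice. Of the 15 genes, 3 were lower and 1 was higher in both knockout mice, where 12.8% and 15.5% of all genes were. Of 14 glucocorticoid-responsive genes 10 had positive, 3 negative and 1 zero differences, with mean deviations of -0.13 and 0.067 in wild type against -0.05 and 0.11 in the knockout and a median difference of 0.06. Among them Cdkn1a, an inhibitor of the cell cycle, was at 8.57 and 9.05 against 8.92 and 9.26, and Sult1a1, a sulfotransferase, 7.26 and 7.78 against 7.38 and 7.99. Both were lowest in the first wild-type mouse, where Dbp was highest. The next largest differences, 0.12 each, were in Plin4 and in Sgk1, a kinase, and neither separated the genotypes.

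Of 8 temperature-responsive genes 7 were measured, with a median difference of -0.06 and mean deviations of 0.13 and -0.015 in wild type against -0.095 and -0.019 in the knockout. The largest differences were in heat shock genes. Hspa1b was at 10.20 and 9.96 against 9.45 and 10.04, Hspa1a at 9.22 and 8.73 against 8.65 and 8.86, and Dnajb1, their co-chaperone, at 10.97 and 10.90 against 10.65 and 10.75. All 3 were lower in the first than in the second knockout mouse, the opposite of Dbp. As in Dbp, all 3 were highest of the 4 mice in the first wild-type mouse. Cirbp, a cold-inducible RNA-binding protein whose RNA follows the daily rhythm of body temperature, was at 9.66 and 9.37 in the wild-type mice and at 9.83 and 9.40 in the knockout mice. Like Dbp it was higher in the first mouse of each genotype, by 0.29 and 0.43, and unlike Dbp it was highest in the first knockout mouse. Markers of the suprachiasmatic nucleus did not follow the clock outputs in their order of mice, though their genotype difference had the same sign. All 8 of those measured, of 9, had negative differences, with a median of -0.077, and their mean deviations were 0.023 and 0.057 in wild type against -0.077 and -0.0025 in the knockout. Vip, a peptide made by cells of this nucleus and also by cortical interneurons, was at 9.98 and 10.10 against 9.91 and 9.97, Avp (vasopressin) was at 8.98 and 9.12 against 8.69 and 9.13, Vipr2, the VIP receptor, at 5.97 and 5.85 against 5.75 and 5.78, and Six6 and Prok2 were dim at 3.64 to 4.74. In limma 0 genes of these lists passed the adjusted threshold, and at an unadjusted p under 0.05 it gave 1 activity-induced, 1 temperature-responsive, 0 glucocorticoid-responsive and 0 suprachiasmatic genes, where 0.0055% of all genes passed the first and 2.75% the second. The part that activity, glucocorticoids or temperature had in the clock gene values was not tested.

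**Figure D5:**
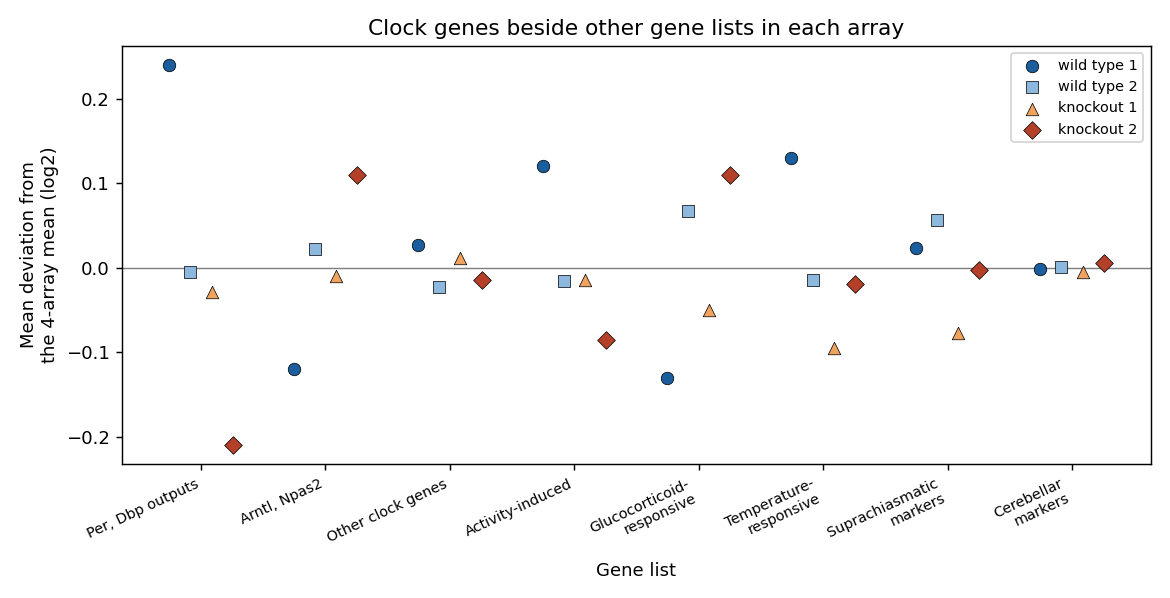
Mean log2 deviation from the 4-array mean of the clock outputs, the activators and 6 other gene lists, with 1 symbol per mouse. The first wild-type and the second knockout mouse are at opposite ends for the outputs (0.24 and -0.21), the activators, the activity-induced genes and the glucocorticoid-responsive genes. The 4 mice nearly coincide in the mean of the cerebellar markers, whose single genes differed in both directions.

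The genes whose levels followed Per2 and Dbp most closely over the 4 arrays were sought among 9084 other genes above the median level, by the Euclidean distance between centred log2 profiles. The profile of the brightest Per2 probe set has a length of 0.44 from its own mean. The nearest were Cfp, the complement regulator properdin, at a distance of 0.14, Nt5c, a nucleotidase, at 0.16, and D930016D06Rik and A330023F24Rik at 0.18. Fos, an immediate early transcription factor, followed at 0.19 and Nav2 at 0.2. Cfp was at 8.81 and 8.53 in the wild-type mice and at 8.40 and 8.35 in the knockout mice, with the order of mice seen in Per2. Among the members themselves Per3 and Nr1d2 were nearest to Per2, at 0.25, and Arntl was farthest, at 0.68. For Dbp, with a profile length of 0.79, the nearest were Fgf14 at 0.28, Npas4 at 0.3, Rsrp1 at 0.32, 5031426D15Rik at 0.35, Taf15 at 0.37 and Dusp1 at 0.39. Fgf14, a regulator of sodium channels, was at 9.88 and 9.31 in the wild-type mice and at 9.84 and 8.92 in the knockout mice, so that the first mice of both genotypes were nearly level. The activity-induced genes Npas4 and Dusp1 were closer to Dbp than Per2 was, at 0.55, but they were found as the nearest among 9084 genes. The distance also depends on profile length, which was 0.44 for Per2 and 0.79 for Dbp. With 4 arrays many genes share a profile by their order alone, and these distances are a description.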

How the data were processed

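Brain RNA of 4 mice was labelled by 3' in vitro transcription and read on 1-colour Affymetrix arrays, per the labels' protocols. The deposited log2 levels were made by the authors with RMA, as the submitters' processing notes say; its version is not stated. RMA corrects background, equalises the arrays' distributions and summarises each probe set, which removes shifts shared by all genes and compresses differences of dim genes. There were no detection calls, and precision is limited by the number of arrays.

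Of 45101 rows, 64 controls were left out; 34945 probe sets named 1 gene, 932 several and 9160 none. Per gene, the probe set brightest over all arrays was used. Genotypes were compared by limma 3.58.1 (R 4.3.3; lmFit, eBayes; two-sided; Benjamini-Hochberg over 45037 probe sets; 2 residual and 2.74 prior degrees of freedom). The code was also run on simulated data with planted changes, which checks the code and not these arrays. In the limma fit to the arrays the brightest Bcas1 probe set, at -1.29 (SE 0.12), had an adjusted p of 0.742. SEs come from this fit. An exact permutation test of 2 against 2 mice cannot go below 0.333.

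Members and lists were chosen with earlier results of these data known. The text names every member probe set, Bcas1, genes from among the 4 largest differences of each other list, and the 6 genes nearest in profile to Per2 and to Dbp. Alas2, Csnk1d, Csnk1e, Omp, Pcp2, Prok2 and Tshb were named after their values were seen. Alternatives covered scaling (median or quantile), dim probe sets, the variance prior, a replicate block, the weighting of the contrast and leaving out each array.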

Additional observations from a re-analysis of the deposited data

How the results depend on the processing

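With 2 mice per genotype and no detection calls, differences under the spread between mice cannot be resolved, and dim probe sets (under about the median of 6.49) carry compressed differences. The number of probe sets called lower by limma was 2; it was 1 with dim probe sets left out (22511 tested), 10 with an intensity trend and robust variance, 0 with a replicate block, and 0 whichever array was left out. The called number of clock gene probe sets was 0 under every one of these settings. Their median difference of -0.085 ranged from -0.16 to -0.06 when 1 array was left out and from -0.11 to -0.075 under the other settings. The output minus activator difference of -0.33 ranged from -0.37 to -0.31 over the other scalings, weightings and gene choices, and from -0.52 to -0.14 without 1 array. Of the single probe sets, 4 changed sign without the first wild-type mouse, 3 without the second, and 2 without either knockout mouse; the largest main difference among these was the 0.20 of the dimmer Npas2 probe set. For other clock genes the median was -0.0075, and -0.018 with all probe sets of a gene averaged.

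Mice of the 2 genotypes share the numbers 1 and 2, and deviations of same-numbered mice correlated at 0.241 over all probe sets, but nothing in the labels pairs them and 2 numbers are too few to show it. The replicate block left the differences as they were and gave a lowest adjusted p of 0.847 among the clock gene probe sets in limma.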
